A study of Mus musculus with 6 samples.

Results

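Genes of the lamellar body and of the apical surface of alveolar type 2 cells were followed in mouse lungs labelled as a conditional knockout of Smad1, a mediator of BMP signalling. The set and the comparison lists were chosen by name with earlier results of these data known, so counts over them only describe. The set holds 8 genes, Abca3, Lamp3, Ctsh, Slc34a2, Muc1, Lrp2, Lgi3 and Egfl6. Of these, 7 had probe sets annotated to them alone, 14 probe sets out of 45037 on the array. The 1 probe set listed for Lamp3, a membrane protein of lamellar bodies, is also annotated to Ppid, so Lamp3 is given no value here. The tested lungs came from embryos labelled Smad1 CKO, a conditional knockout of Smad1 restricted to the lung epithelium, and the controls came from embryos labelled wild type, all of strain C57/BL6 at E18.5. The sources used here give neither the Cre driver nor the deleted part of Smad1, and they do not say which alleles the wild type animals carried. RNA of the left lobe was read on Affymetrix Mouse430_2 arrays, 1 array per animal, for 3 pairs of 1 CKO and 1 wild type mouse. Each value is the deposited intensity of a probe set or its log2, and each difference is log2 CKO minus wild type within a pair, averaged over 3 pairs.

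Alveolar type 2 cells make pulmonary surfactant, a mixture of lipids and proteins that keeps alveoli open after birth. They pack it into lamellar bodies, secretory organelles related to lysosomes, and release it across their apical membrane. ABCA3 pumps phospholipids into the lamellar body, cathepsin H (Ctsh) is a lysosomal protease that takes part in processing surfactant protein B, and the phosphate transporter SLC34A2, the mucin MUC1 and the endocytic receptor LRP2 (megalin) sit in the apical membrane. The lobe holds many cell types, so in these bulk values fewer cells of a type and less RNA per cell cannot be told apart.

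The array Smad1 CKO 3 differed in quality from the remaining 5 and touches every value of pair 3. It gave 2887 for the 18S ribosomal RNA control, while the remaining arrays gave 242.5 to 297.2, and its upper quartile of intensity was 170.3, against 222.3 to 283.8. Among the brightest 10% of probe sets, to which 6 of the 7 measured genes belong, pairs 1 to 3 had median differences of -0.26, -0.0031 and -1.37. Smad1 CKO 1 differed from the other arrays in sex-linked genes, with an Xist level of 10.95 (log2), against 6.07 to 7.70. The brightest probe set of Smad1 itself (1459843_s_at) read 1111, 1577 and 529.0 in CKO lungs and 1026, 1089 and 739.2 in wild type lungs, ranges that overlap. No other probe set of Smad1 was examined here. The sources used here do not say whether this probe set lies in the deleted part. Type 2 cells were represented in every lobe: Sftpc, the surfactant protein C gene that defines them, read 15865, 18237 and 4765 in CKO lungs and 22488, 21935 and 20285 in wild type lungs, against array medians of 70.0 to 77.8.

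The set split into 3 genes that were lower in every pair with no overlap between the groups and 4 genes whose groups overlapped. Abca3, Slc34a2 and Lrp2 were at least 2-fold lower in CKO lungs in each of pairs 1 and 2, which 0.206% of all probe sets and 0.622% of the brightest 10% were. This rule was chosen after the values were seen. For the same 3 genes every CKO array lay below every wild type array, as it did for 5.36% of all probe sets and 13.5% of the brightest 10%. The same 3 had an unadjusted p under 0.05 with at least a 1.5-fold lower level, as 7.43% of all probe sets and 12.1% of the brightest 10% did. None of the 7 passed this rule as higher, against 3.47% of all. Without pair 3 the same 3 passed, against 4.40% of all. Without pair 2 the count was 5 of 7, in a fit in which 15.6% of all probe sets passed. Ctsh, Muc1, Lgi3 and Egfl6 did not pass in the fit of all 3 pairs. Below 0 in all 3 pairs were 5 of 7 genes, against 24.1% of all probe sets and 48.5% of the brightest 10%, and 0 were higher in all 3, against 22.7% of all.

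No gene of the set passed the test across all probe sets (limma with the pair as a block, Benjamini-Hochberg adjusted p under 0.05), in which 0.00222% of probe sets passed as lower and 0% as higher. The count was 0 of 7 in this fit and 0 in all 13 alternatives, 1 of which, without dim probe sets, tested 6 genes because it leaves out Lrp2. The median difference of the 7 genes was -0.81, against 0.0028 for all probe sets and -0.55 for the brightest 10%, and it was -0.29 without pair 3.

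**Figure D1:**
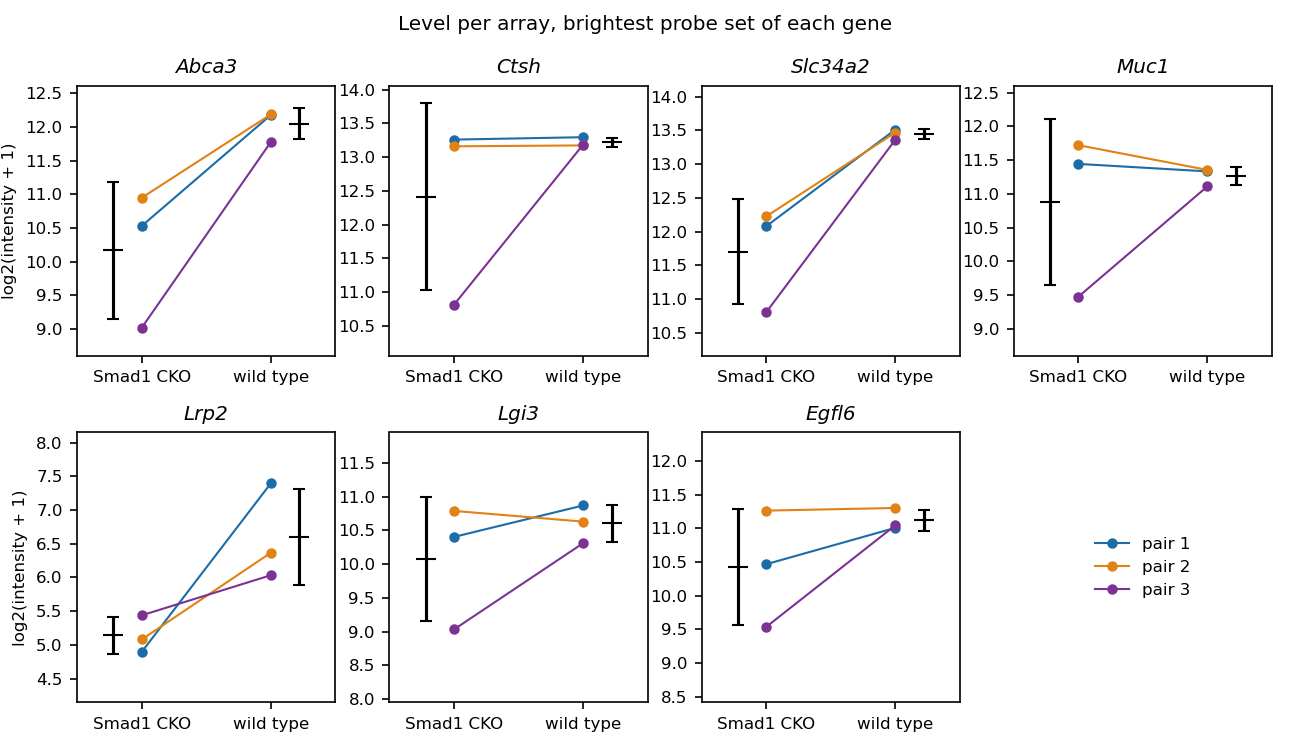
Level of 7 genes in each array, on the log2(intensity + 1) scale, with Smad1 CKO lungs left and wild type lungs right in each panel. Lines join the arrays of a pair, and black bars give the mean and SD over 3 arrays. All panels span 4 log2 units. Abca3, Slc34a2 and Lrp2 slope the same way in all 3 pairs, while Ctsh, Muc1, Lgi3 and Egfl6 are nearly level in pairs 1 and 2 or slope less there than in pair 3.

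Among the genes of the lamellar body and lysosome, Abca3, the phospholipid transporter, was lower in all 3 CKO lungs. Its brightest probe set (1451731_at) read 1479, 1975 and 519.5 in CKO lungs 1 to 3, against 4627, 4654 and 3507 in wild type lungs 1 to 3. The groups did not overlap, and CKO lung 3 was the lowest of all. The pair differences were -1.65, -1.24 and -2.75, with a mean of -1.88 ± 0.78 (SD, 3 pairs), a 3.68-fold lower level (95% interval -2.67 to -1.09, adjusted p = 0.367). In pairs 1 and 2 alone it was 2.71-fold lower. A second bright probe set (1425496_at) read 701.2, 753.0 and 229.9 in CKO lungs and 1883, 1614 and 1295 in wild type lungs, a difference of -1.67 ± 0.73. Both bright probe sets thus placed all CKO arrays below all wild type arrays. The last probe set of Abca3 (1451869_at) was dimmer than the median probe set and went the other way in pairs 1 and 2, at 0.81, 0.84 and -0.90.

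The cathepsin H gene was nearly level in pairs 1 and 2. Ctsh read 9797, 9144 and 1796 in CKO lungs, against 10042, 9230 and 9303 in wild type lungs. Pairs 1 and 2 differed by -0.036 and -0.013, and pair 3 by -2.37. The mean of -0.81 ± 1.36 thus rested on pair 3, and leaving that pair out gave -0.024 (adjusted p = 0.982). The second probe set (1443814_x_at) gave -0.13, 0.0049 and -1.20. Ctsh is also expressed by macrophages. All 15 macrophage markers were measured, with median differences of -0.17, 0.098 and -0.20 in pairs 1 to 3. Of these markers, 3 were lower and 4 higher in all 3 pairs, against 24.1% and 22.7% of all probe sets. The unadjusted rule was passed as lower by 7.43% of all probe sets. The complement gene C1qa, at -0.98 ± 0.52, was the 1 marker past the unadjusted rule, and Cd14, a receptor for bacterial lipopolysaccharide, was at 0.38 ± 0.33. The markers had a summed intensity of 2828 to 4637 in CKO lungs and 3374 to 4174 in wild type lungs. None was at 0, which does not show detection, and the part of these markers in the Ctsh level was not tested.

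Among apical membrane genes, Slc34a2 was lower throughout. This sodium-dependent phosphate cotransporter, mutated in human pulmonary alveolar microlithiasis, read 4328, 4788 and 1788 in CKO lungs and 11687, 11335 and 10523 in wild type lungs. The wild type arrays lay close together, with an SD of 0.078 (log2), and all 3 CKO arrays lay below them. The pair differences were -1.43, -1.24 and -2.56, with a mean of -1.74 ± 0.71 (SD, 3 pairs), a 3.35-fold lower level (95% interval -2.48 to -1.0, adjusted p = 0.367). In pairs 1 and 2 alone it was 2.53-fold lower.

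Muc1, a transmembrane mucin of the apical surface of many epithelia, had no settled direction. It read 2784, 3375 and 710.5 in CKO lungs, against 2577, 2616 and 2211 in wild type lungs. CKO lungs 1 and 2 were above all wild type lungs and CKO lung 3 was below them. The pair differences were 0.11, 0.37 and -1.64. Their mean of -0.39 ± 1.09 (adjusted p = 0.577) turned to 0.24 without pair 3 and to 0.21 after cyclic loess normalization.

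Lrp2, which encodes the endocytic receptor megalin, was a dim gene on these arrays. Its brightest probe set (1427133_s_at) read 28.8, 32.9 and 42.4 in CKO lungs, against 167.6, 81.6 and 64.5 in wild type lungs. All CKO values lay below the array medians, which ran from 70.0 to 77.8, and 2 of the 3 wild type values lay above. The pair differences were -2.50, -1.29 and -0.59, with a mean of -1.46 ± 0.96 (SD, 3 pairs, adjusted p = 0.367). A second probe set (1452320_at) gave -1.70, -1.07 and -1.14, or -1.30 ± 0.34. The dimmest probe set (1445901_at), at 22.4 to 39.0 on all arrays, gave 0.30. No detection calls were used here, so the size of the difference in megalin RNA is uncertain. On the brightest probe set the difference was smallest in pair 3.

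**Figure D2:**
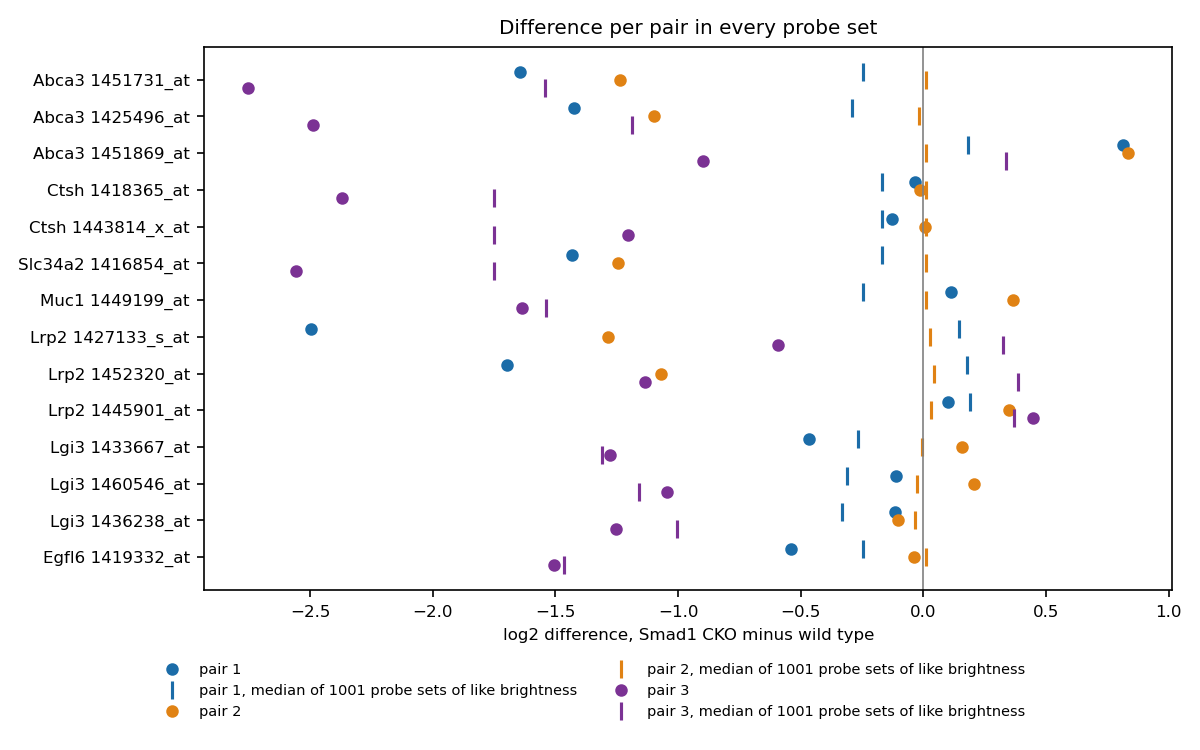
Difference in each pair (dots, log2 CKO minus wild type) for all 14 probe sets, with the median difference of the 1001 probe sets nearest in brightness in the same pair (ticks). The dots of pair 3 lie left of 0 for all bright probe sets, as do its ticks. The dots of the 2 bright Abca3 probe sets, Slc34a2 and the 2 brighter Lrp2 probe sets lie left of their ticks in all 3 pairs.

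The secreted genes lay within 0.54 of 0 in pairs 1 and 2. Lgi3, a secreted leucine-rich repeat protein of the LGI family, read 1353, 1767 and 522.4 in CKO lungs and 1869, 1583 and 1268 in wild type lungs. Its pair differences were -0.47, 0.16 and -1.28, and the groups overlapped. The mean was -0.53 ± 0.72 (adjusted p = 0.382), and its other probe sets gave -0.32 and -0.49. Egfl6, a secreted protein with EGF-like repeats that binds integrins, read 1414, 2454 and 742.4 in CKO lungs and 2055, 2521 and 2109 in wild type lungs. The pair differences were -0.54, -0.039 and -1.50, with a mean of -0.69 ± 0.75 (adjusted p = 0.367). Egfl6 lies on chromosome X, and pair 1 is the pair whose CKO array differed in sex-linked genes. The part of that in its pair 1 value was not tested.

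The promoters of Abca3, Slc34a2 and Lrp2 are shown because these were the 3 genes with every CKO array below every wild type array. Each window, from RefSeq (GRCm38.p6), runs from 250 bases before an annotated start to 50 bases after it, 5′ to 3′ on the strand of the gene. For Abca3 the gene annotation used here begins at 24351921, upstream of the start on which its window was placed. Its window thus holds fewer bases before the gene start than the other windows shown. Capitals mark matches to the motifs named next.
Abca3, chr17:24351773-24352072, strand +: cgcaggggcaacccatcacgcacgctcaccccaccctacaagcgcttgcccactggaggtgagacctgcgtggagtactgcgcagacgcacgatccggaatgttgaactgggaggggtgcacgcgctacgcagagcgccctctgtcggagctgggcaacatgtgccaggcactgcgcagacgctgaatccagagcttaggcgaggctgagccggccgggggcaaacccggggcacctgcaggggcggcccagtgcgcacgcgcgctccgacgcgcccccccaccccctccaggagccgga
Slc34a2, chr5:53049103-53049402, strand +: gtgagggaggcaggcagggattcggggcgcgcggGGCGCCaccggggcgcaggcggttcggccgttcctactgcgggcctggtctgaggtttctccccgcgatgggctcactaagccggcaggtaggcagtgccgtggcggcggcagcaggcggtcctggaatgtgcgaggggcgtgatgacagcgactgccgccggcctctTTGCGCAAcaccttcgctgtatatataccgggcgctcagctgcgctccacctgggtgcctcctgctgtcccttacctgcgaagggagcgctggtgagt
Lrp2, chr2:69585980-69586279, strand -: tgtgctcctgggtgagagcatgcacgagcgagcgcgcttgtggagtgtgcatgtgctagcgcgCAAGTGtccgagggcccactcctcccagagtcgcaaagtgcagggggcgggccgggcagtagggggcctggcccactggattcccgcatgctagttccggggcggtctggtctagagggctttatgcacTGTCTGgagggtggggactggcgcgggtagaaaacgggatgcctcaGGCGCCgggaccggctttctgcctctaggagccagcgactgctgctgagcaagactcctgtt

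Motifs were searched on both strands, and none of the matches found overlapped. The NKX2-1 motif, CAAGTG, was in 13.6% of the 32851 promoters of the same length. The GC-rich SMAD1/5 motif, GGCGCC, reads the same on both strands and was in 11.9% of them. The other SMAD motif, CAGACA, was in 21.0% of all promoters. The C/EBP motif, TTGCNNAA, was in 10.8% of all promoters. The ETS motif, CGGAAG, was in 16.9% of all promoters. The FOXA motif, TNTTTAC, was in 12.4% of all promoters. The Slc34a2 window held the GC-rich SMAD motif and, 48 bases before the start, the C/EBP motif. The Lrp2 window held the NKX2-1 motif, the other SMAD motif on the opposite strand and the GC-rich SMAD motif 12 bases before the start. The Abca3 window held none of the 6. Windows were found for 6 of the 8 genes, and the GC-rich SMAD motif was in 3 of them, Slc34a2, Lrp2 and Egfl6. These 3 windows were 68.7%, 65.0% and 65.3% G or C, and the motif holds only G and C. No share over promoters of like GC content was taken, so an excess cannot be read from this count. The window of Lamp3 held a FOXA match and that of Muc1 held no match. The window of Egfl6, whose groups overlapped, thus shared the GC-rich motif with those of Slc34a2 and Lrp2. The Abca3 window, placed differently from the gene start, lacked it.

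Set against each other within pairs, some of the bright genes ran in parallel and others did not. Abca3 and Slc34a2 had nearly the same difference in each pair: Abca3 minus Slc34a2 was -0.21, 0.0071 and -0.20. Lgi3 and Egfl6 were also alike, with Lgi3 minus Egfl6 at 0.073, 0.20 and 0.23. Between these couples the gap kept its sign in all 3 pairs, with the widest range, 0.44, for Slc34a2 minus Lgi3. Abca3 minus Egfl6 was -1.11, -1.20 and -1.25, and Abca3 minus Lgi3 was -1.18, -1.39 and -1.47. Slc34a2 minus Egfl6 was -0.89, -1.20 and -1.05, and Slc34a2 minus Lgi3 was -0.97, -1.40 and -1.28. Pair 3 lay close to pairs 1 and 2 in these contrasts. The gap was less steady for Ctsh minus Slc34a2, at 1.40, 1.23 and 0.18. Contrasts of Ctsh and Muc1 with the secreted genes changed sign: Ctsh minus Lgi3 was 0.43, -0.17 and -1.09, Ctsh minus Egfl6 was 0.50, 0.025 and -0.87, and Muc1 minus Lgi3 was 0.58, 0.21 and -0.36. Lrp2 did not run with the bright genes either, with Abca3 minus Lrp2 at 0.85, 0.050 and -2.16. These were chosen from 21 pairs of genes after the values were seen, and with 3 pairs of mice an exact test within pairs cannot give a two-sided p below 0.25.

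Each gene was also set against the median of the 1001 probe sets nearest in brightness, an adjustment added after seeing the data. Abca3 was at -1.40, -1.25 and -1.21 relative to that median in pairs 1 to 3, a mean of -1.29 ± 0.10 (SD, 3 pairs), so its spread over pairs was smaller than in the plain differences. Slc34a2 was at -1.26, -1.25 and -0.81 and Lrp2 at -2.64, -1.31 and -0.92 on this scale. In pair 2, where bright probe sets were not shifted, 0.40% of the neighbours of Abca3 and 0.50% of those of Slc34a2 had a lower difference. Lgi3 was at -0.20, 0.16 and 0.031, and Egfl6 at -0.29, -0.048 and -0.040. Ctsh was at 0.13, -0.025 and -0.62, while its second probe set was at 0.55 in pair 3. The sign on this scale thus depended on the probe set, while the plain differences of that pair were -2.37 and -1.20. The Ctsh probe sets and Slc34a2 were all set against the same 1001 brightest probe sets, with a median of -1.75 in pair 3. Muc1 was at 0.36, 0.36 and -0.099. Below their neighbours in all 3 pairs were Abca3, Slc34a2, Lrp2 and Egfl6, against 20.0% of all probe sets.

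**Figure D3:**
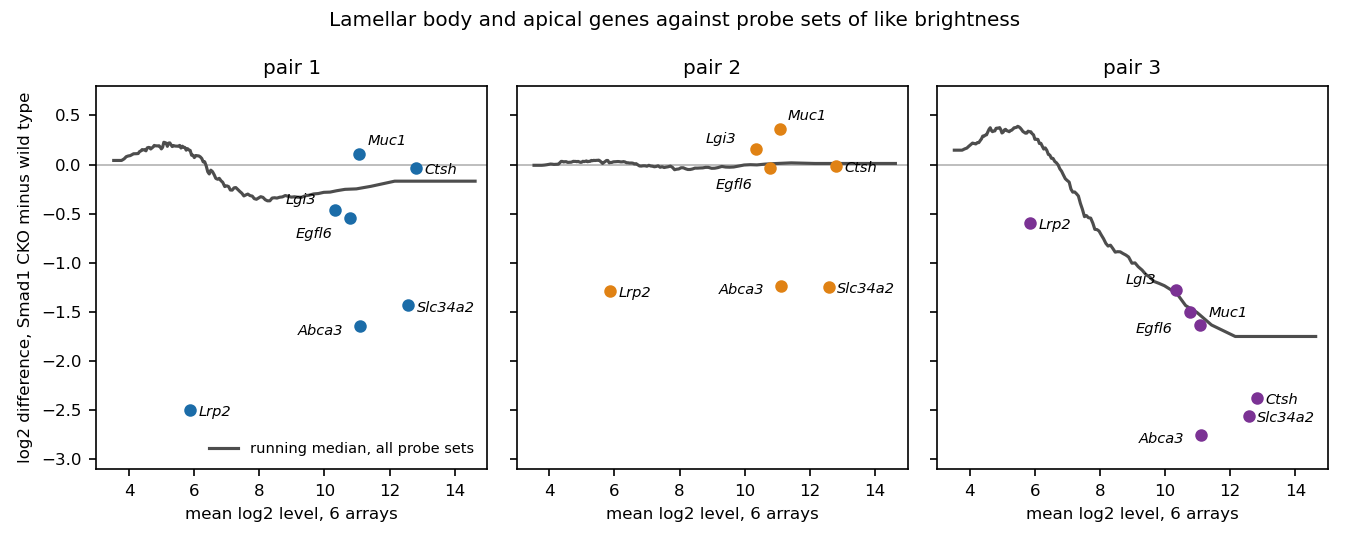
Difference in each pair (log2 CKO minus wild type) against the mean log2 level over 6 arrays. The line is the running median over 1001 probe sets, flat at each end, and dots are the 7 genes. The line stays near 0 in pair 2 and falls with brightness in pair 3. Lgi3, Egfl6 and Muc1 lie near the line in pair 3, while Abca3 and Slc34a2 lie below it in all 3 pairs.

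The other epithelial genes gave a second reference. The 22 measured general epithelial markers had median differences of 0.019, 0.20 and -1.01 in pairs 1 to 3, and their summed intensity was 10320 in CKO lung 3 and 26440 to 31200 in the other CKO lungs, against 26710 to 27790 in wild type lungs. The markers' own medians relative to probe sets of like brightness were 0.31, 0.21 and 0.20, so this reference was not matched for brightness. Relative to the epithelial median Slc34a2 was at -1.45, -1.45 and -1.55, a mean of -1.48 ± 0.058, and Abca3 was at -1.66, -1.44 and -1.74. Also below it in all 3 pairs were Ctsh at -0.055, -0.22 and -1.36, Lgi3 at -0.49, -0.044 and -0.27, and Egfl6 at -0.56, -0.24 and -0.50. Muc1, by contrast, was at 0.092, 0.16 and -0.63. Lrp2, a dim gene, was at -2.52, -1.49 and 0.41, so it lay above that median in pair 3. None of the epithelial markers passed the unadjusted rule in either direction, against 7.43% of all probe sets as lower and 3.47% as higher. In all 3 pairs 6 of the 22 were lower and 2 higher, against 24.1% and 22.7% of all probe sets. Krt7, a keratin of simple epithelia, was at -0.42 and -0.44 in pairs 1 and 2. Cldn4, a marker higher in all 3 pairs, was at 0.26 and 0.81 there.

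Other type 2 markers showed the same unevenness. All 20 were measured, and 17 were lower in all 3 pairs, against 24.1% of all probe sets and 48.5% of the brightest 10%. The unadjusted rule was passed as lower by 14, against 7.43% of all and 12.1% of the brightest 10%. As higher 0 passed, against 3.47% of all, and 0 passed the adjusted test. Summed, the markers read 20960 to 73400 in CKO lungs and 105100 to 123600 in wild type lungs. By the rule applied above, 6 were at least 2-fold lower in each of pairs 1 and 2: Sftpa1, Scd1, Hc, Acoxl, Lpcat1 and S100g. That rule was met by 0.206% of all probe sets and 0.622% of the brightest 10%. Lpcat1, an acyltransferase of surfactant phosphatidylcholine, was at -2.18, -1.76 and -2.90, and Sftpb, whose protein is needed to form lamellar bodies, at -1.10, -0.84 and -2.78. At the other end, Napsa, the aspartic protease that processes surfactant protein B, was at -0.028, -0.021 and -1.57, close to Ctsh in pairs 1 and 2. Sftpd, surfactant protein D, was at 0.0072, 0.094 and -1.57, and Nkx2-1, the transcription factor that specifies lung epithelium, at 0.028, 0.11 and -0.46. Both proteases of surfactant protein B measured here were thus near 0 in pairs 1 and 2, while Abca3 was lower in both.

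**Figure D4:**
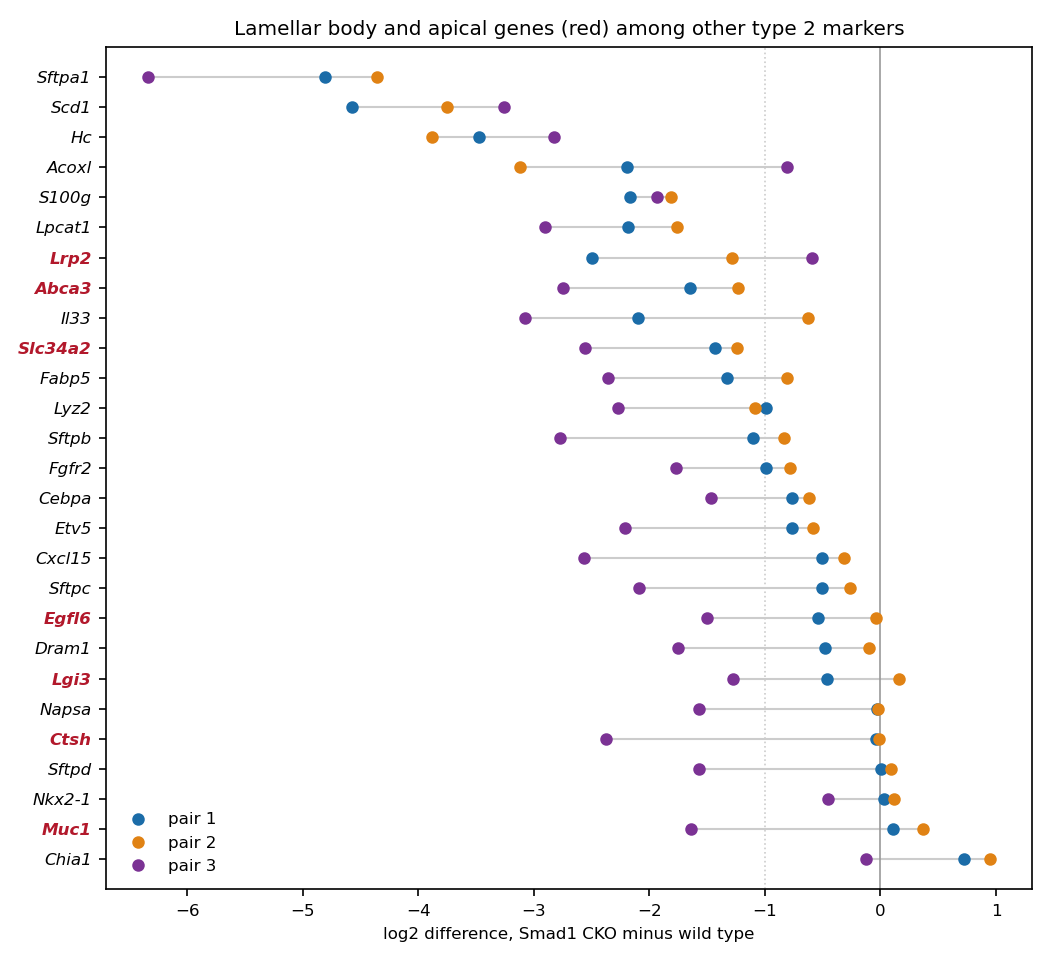
Difference in each pair (dots, log2 CKO minus wild type) for the 7 lamellar body and apical genes (red names) and 20 other type 2 markers, ordered by the mean of pairs 1 and 2. The dotted line marks a 2-fold lower level. Lrp2, Abca3 and Slc34a2 stand left of it in pairs 1 and 2, and Ctsh and Muc1 stand near 0 there beside Napsa, Sftpd and Nkx2-1.

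Other lysosomal genes passed at a share near that of all probe sets. Of 29 measured genes of lysosomes and lamellar body formation, 2 passed the unadjusted rule as lower, Npc1 and Lamp1, beside 7.43% of all probe sets, and 0 as higher, and 0 passed the adjusted test. Their medians were -0.25, -0.021 and -1.09, and relative to probe sets of like brightness 0.0068, 0.00099 and 0.11. Npc1, which exports cholesterol from lysosomes, was at -1.58, -0.49 and -2.03 (mean -1.36 ± 0.79), and Lipa, the lysosomal acid lipase, at -0.54, -0.30 and -0.87. Lamp1, a membrane protein related to Lamp3, was at -0.39, -0.28 and -1.50. Among 12 other cathepsins 0 passed the unadjusted rule, with Ctsc at -0.55, -0.15 and -2.00 and Ctsz at -0.46, -0.11 and -2.28. Among 11 other transporters of the ABCA family 1 passed, Abca7 at -0.66 ± 0.47, and Abca1, which exports cholesterol from cells, was at -0.74, -0.00088 and -1.41. In each of these 3 lists 0 genes were at least 2-fold lower in both pairs 1 and 2, as Abca3 was.

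Relatives and partners of the apical and secreted genes are given beside the 7.43% of all probe sets that passed the unadjusted rule as lower and the 3.47% that passed as higher. Of 6 genes of phosphate transport and release 0 passed the unadjusted rule, and Slc34a3, of the same transporter family as Slc34a2, was at 0.31 ± 0.18. Slc20a2, a phosphate transporter of another family, was at 0.40 ± 0.26. Of 11 megalin partners and LDL receptor relatives 1 passed as lower, Lrp4 at -0.86 ± 0.55. Cubn, whose product cubilin works with megalin in endocytosis, was at -0.58, -0.56 and -0.46, a mean of -0.53 ± 0.064 that fell short of the 1.5-fold limit. The probe sets of Cubn and Slc34a3 were dim, exceeding 30.6% and 39.4% of all probe sets. Without detection calls it is not known whether these genes were expressed. Of 11 relatives and receptors of Lgi3 and Egfl6, the integrin subunit Itga8, a receptor of the Egfl6 relative nephronectin, passed as lower at -1.03 ± 0.84 and Adam11 as higher at 0.72 ± 0.52. None of these lists held a gene that passed the adjusted test.

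The profile of the set over the 6 arrays was shared by genes with other functions. Among 5577 bright and variable genes, the closest to the mean of the 7 were Scn3b, Eif3b, Ntn4, Elovl1, Sftpb and Acot9, with Pearson r of 0.996 to 0.998, and pair 3 had the lowest difference of the 3 pairs for each of these 6. Closest to the mean of Abca3 and Slc34a2, a pair chosen after the values were seen, were Fgfr2, Dlk1, Serpinb6b, Idi1, Gdpd2 and Notum (r 0.993 to 0.997). Fgfr2, the receptor of FGF10, was at -0.99, -0.78 and -1.77, Dlk1, an imprinted gene related to Notch ligands, at -1.90, -1.90 and -3.57, and Notum, a secreted inhibitor of Wnt, at -0.84, -0.60 and -1.07. With 6 arrays that share pairs and 1 outlying array, these correlations only describe the profiles.

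Markers of other cell types were set beside the set. Of all probe sets, 7.43% passed the unadjusted rule as lower and 3.47% as higher. The 15 alveolar type 1 markers had medians of -0.37, -0.32 and -1.47, with 7 past the unadjusted rule, led by Aqp5 at -3.05 ± 0.17. The 14 endothelial markers had medians of -0.72, -0.51 and -1.55, with 11 past the rule, led by Car4 at -1.43 ± 0.094. Club cell markers, of airway secretory cells, had medians of -0.041, 0.16 and -1.46, with Scgb1a1 at -0.21, -0.26 and -1.95 and Scgb3a1 past the rule as higher (0.93 ± 0.88). Fibroblast, smooth muscle, ciliated and dendritic cell markers had medians between -0.23 and 0.15 in pairs 1 and 2, and the 1 gene of these lists past the rule was Pdgfra at -0.92 ± 0.93. Mesothelial markers had medians of -0.37, -0.25 and 0.19, with 2 past the rule, led by Msln at -1.78 ± 0.38, and the 4 measured erythroid markers 0.18, -0.072 and -0.68, with Slc4a1 at -0.78 ± 0.53. No marker was at 0 on any array, which does not show detection, as no detection calls were used. The part of these shifts in the levels of the lamellar body and apical genes was not tested.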

How the data were processed

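RNA of 6 left lung lobes at E18.5, 3 Smad1 CKO and 3 wild type, was profiled. The authors deposited 1 intensity per probe set, on a linear scale judging by its range. RMA, which corrects background, normalizes between arrays and summarises probes, is named in the submitters' processing notes, while its software and settings are not given there.

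After 64 control probe sets were removed, 45037 remained: 34945 annotated to 1 gene symbol, 932 to several and 9160 to none. Intensities were turned into log2(value + 1), with no filter on low values, so a difference of dim probe sets is slightly understated. The probe set with the highest mean over 6 arrays represents a gene. The genotypes were compared by a two-sided limma fit (version 3.58.1, R 4.3.3, lmFit and eBayes) that held the pair as a block, with Benjamini-Hochberg adjustment over all probe sets at 0.05. Pairing is described in the series' design text, and deviations from group means correlated within them at 0.258, 0.604 and 0.597. The fit was tested on simulated data. P-values and intervals rest only on the spread between these arrays, whose number limits the precision. The eBayes step draws each probe set's variance toward a value shared by all, so intervals do not follow from the printed SDs alone.

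Every member was named, with up to 4 genes of smallest p per list and the 6 genes most like the members. For the last, a mean level at or above the median of all probe sets and an SD of at least 0.5 were required. Of 241 listed entries, 227 were measured. Members and lists were chosen with earlier results of these data known. Alternatives covered the block, normalization, pseudocount, dim probe sets, the prior, probe set choice and left-out arrays.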

Additional observations from a re-analysis of the deposited data

How the results depend on the processing

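No lamellar body or apical gene passed the adjusted test in any of 13 alternatives (12 for Lrp2), whose lowest adjusted p was 0.110 (Abca3 without pair 3). Abca3 ranged from -2.20 to -1.10, Slc34a2 from -1.99 to -1.07 and Lrp2 from -1.89 to -0.82, all lower throughout, and Ctsh from -1.23 to -0.0080 and Egfl6 from -1.02 to -0.12. Muc1 turned its sign, to 0.21 after cyclic loess normalization, 0.095 after quantile normalization, 0.20 with brightness-matched centring, 0.24 without pair 3 and 0.32 without Smad1 CKO 3 in an unpaired fit, and ranged from -0.76 to 0.32 with pairs or arrays left out. Lgi3 turned to 0.023 after cyclic loess normalization. The cause was not tested. The median of the set was -0.13 after cyclic loess, -0.19 after quantile normalization and -0.17 with the centring, and between -1.23 and -0.25 with arrays left out. The count past the unadjusted rule was 3 to 5 with a pair or array left out (5 without pair 2), 2 of 6 without dim probe sets, which removes Lrp2, and 4 with all probe sets of a gene averaged, where Abca3 was at -1.10. Without the replicate block no call changed, and the count of 3 stayed, with Abca3 at an unadjusted p of 0.00667 (limma). The centring, with its rule for the brightest and dimmest probe sets, was chosen after seeing the data. Calls across all probe sets numbered 1 in the paired fit, 0 without the block, 16 without dim probe sets, 32 with an intensity trend, 28 without pair 3, 8 with probe sets averaged, 2 after cyclic loess or the centring, and 0 after quantile normalization, with a pseudocount of 16 or without pair 1. Lrp2 was read near the array median, where signal over background is not known.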

Other observations

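Of 9 measured mucins other than Muc1, 5 were higher in CKO lungs in all 3 pairs, against 22.7% of all probe sets, and 1 passed the unadjusted rule as higher, against 3.47%, while 0 passed the adjusted test. Muc13, a transmembrane mucin, was at 0.82, 0.15 and 0.91 (mean 0.63 ± 0.41), and the secreted mucins Muc5ac and Muc5b, of airway goblet and gland cells, were at 0.44 ± 0.13 and 0.37 ± 0.077. Their medians were 0.40, 0.28 and 0.41 in pairs 1 to 3, and 0.33, 0.27 and 0.33 relative to probe sets of like brightness. Summed over the 9 genes, intensities were 704.3 to 786.4 in CKO lungs and 516.4 to 565.2 in wild type lungs. These probe sets were not bright: the brightest, that of Muc5b, exceeded 59.9% of all probe sets, and that of Muc15 3.5%. Muc5ac read 66.9 to 100.5 in CKO lungs and 54.3 to 68.6 in wild type lungs, against array medians of 70.0 to 77.8. No detection calls were used, so whether these mucins were expressed is not known.

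Among type 2 markers Chia1, an acidic chitinase, was higher in pairs 1 and 2, at 0.72 and 0.95, and at -0.13 in pair 3 (adjusted p = 0.369).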
